A study of Homo sapiens with 28 samples.

Results

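Darinaparsin and arsenic trioxide, 2 arsenic compounds, were compared after 24 h of treatment in 4 human myeloma lines: U266, MM.1s, KMS11 and 8226/S. The comparison used 16 of the 28 arrays of the series, 4 after darinaparsin (DAR 24 h), 4 after arsenic trioxide (ATO 24 h) and the 8 untreated arrays, called control 1 and control 2 in each line. For each line, the change with DAR (DAR 24 h minus control 1) was set against the change with ATO (ATO 24 h minus control 2) on a log2 scale, and the difference, DAR change minus ATO change, was averaged over the 4 lines. It was taken for 19775 genes, of which 15448 passed a filter on low signal and were tested. DAR was given at 4 µM to U266, at 3 µM to MM.1s and KMS11 and at 2 µM to 8226/S, and ATO at 2 µM to every line, so the doses were equal only in 8226/S. Each line is an established culture with 1 array per treatment, so the line is the replicate (n = 4). No label says that arrays of a line came from separate cultures. The p-values and SE rest on a spread between lines that is pooled over every treatment of the 28 arrays. They do not measure the spread of this difference over the 4 lines alone. The control cells were sampled at 0 h, so 24 h in culture is part of every treated value.

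Plasma cells are the B lineage cells that secrete antibody, and multiple myeloma arises when they turn malignant. Arsenic trioxide is an inorganic trivalent arsenical, and darinaparsin is an organic arsenical in which dimethylated arsenic is bound to glutathione. Trivalent arsenic binds thiol groups of proteins. Cells exposed to inorganic arsenic are known to induce metallothioneins through the metal-sensing factor MTF1, to induce heme oxygenase and glutathione genes through NRF2 and the loss of BACH1 repression, and to induce heat shock genes. These responses were described here by gene lists beside plasma cell, metabolic, cell cycle and immune genes.

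The labels number the controls, and the arrays of DAR and control 1 differed as a set from those of ATO and control 2. The median signal was 65.5 to 108.7 on the DAR and control 1 arrays, 6 h arrays included, and 110.9 to 147.3 on the ATO and control 2 arrays. Subtracting the control of the same set removes a constant shift per gene, but any effect of the set that differs between treated and control cells cannot be told apart from the agent. Beside the genes below, the difference was therefore also split into its part between treated arrays (DAR 24 h minus ATO 24 h) and its part between controls (control 1 minus control 2). Of 8 plasma cell markers, 7 or 8 were above the array median after DAR and 6 to 8 after ATO. Of 26 markers of other blood and tissue cells, 6 to 10 were above it on the DAR arrays and 10 to 16 on the ATO arrays, against 5 to 11 in control 1 and 10 to 15 in control 2.

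At 24 h the changes differed between the agents at 36 of 15448 genes (0.233%; limma, Benjamini-Hochberg adjusted p under 0.05), with 17 higher with DAR (0.11%) and 19 lower (0.123%). The 19 lower genes included 7 metallothioneins, the noncoding RNA gene LINC00304, the heme oxygenase 1 gene HMOX1, GCLM and NQO1, and each of the 19 rose with ATO while none was called with DAR. The 17 higher genes included FOS, RGS2, TNFRSF17 and CD48. Of these 17, 12 fell with ATO and were not called with DAR, 3 rose with DAR and were not called with ATO (SFXN3, GSDMB and LRRFIP1), and EYA2 and CD44 were called with neither. Against their own controls, 96 genes changed with DAR (0.621%), 76 higher (0.492%) and 20 lower (0.129%), and 777 with ATO (5.03%), 423 higher (2.74%) and 354 lower (2.29%). At the shares for DAR and for the difference, a short gene list would mostly hold no call. A list below without such calls is therefore no result about its members. The DAR count rested on 8226/S and KMS11, with 0 genes called by limma without 8226/S (unadjusted p under 0.05 for 1698 genes) and 1 without KMS11. The ATO count was 956 without 8226/S and 307, 204 and 202 without U266, MM.1s or KMS11.

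The 36 genes had the same sign in the 4 lines, as did 11.2% of all tested genes on the negative side and 9.97% on the positive side. A fit on the 4 per-line differences alone, with 3 residual degrees of freedom, called 110 genes (69 higher, 41 lower), of which 26 were among the 36. Quantile normalization gave 29 calls with 31.0% of them higher, against 47.2% of the 36, and median centring gave 55.4% of the DAR calls as higher, against 79.2%.

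**Figure D1:**
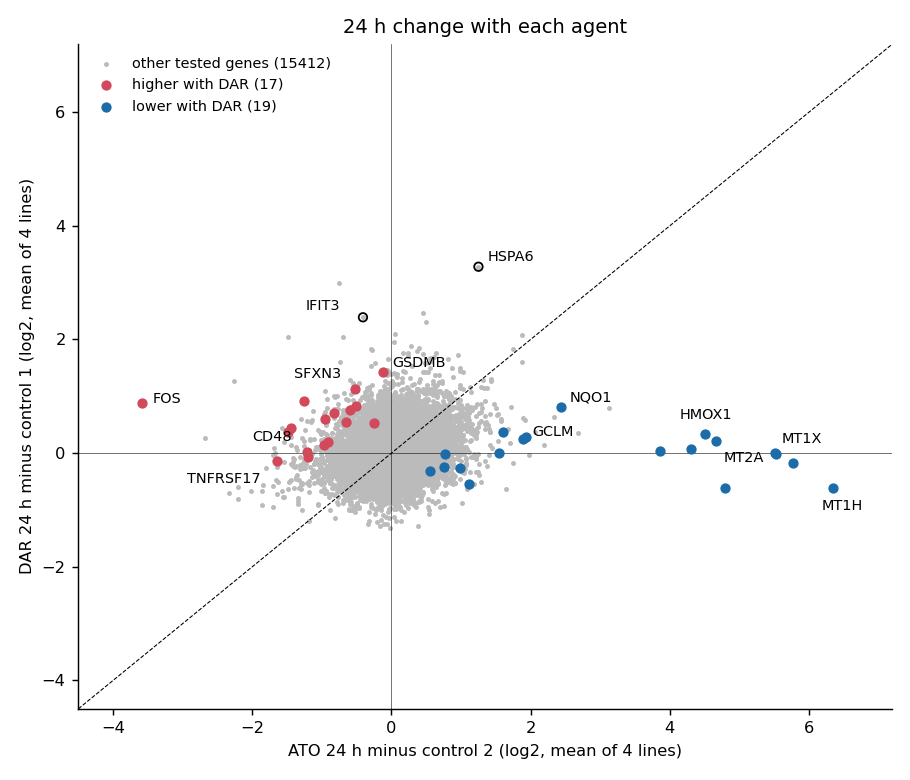
Mean log2 change over 4 lines for each of 15448 tested genes, with DAR minus control 1 on the vertical axis and ATO minus control 2 on the horizontal axis; the dashed line marks equal changes, and open circles mark 2 genes that rose with DAR and were not called for the difference. The 19 genes lower with DAR lie to the right near a DAR change of 0, with MT1H at 6.34 for ATO and -0.62 for DAR, and FOS lies alone on the left at -3.59 for ATO.

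Metallothioneins are small cysteine-rich proteins that bind zinc, copper and other metals. Of 12 genes listed, 8 were tested and 7 were lower with DAR, with a median difference of -4.92 against -0.00 over all tested genes. The same 7 rose with ATO and none was called with DAR, where the list median was 0.02 against 4.73 with ATO. Passing the filter took signal above the array median on at least 4 of 28 arrays, so dim members could enter through ATO arrays. The count and the list medians partly follow from that entry and are not a test of the family. MT2A, the most widely expressed member, had signals of 313 in U266, 283 in MM.1s, 447 in KMS11 and 611 in 8226/S after DAR, against 186, 188, 384 and 887 in control 1. After ATO it stood at 24631, 32800, 13918 and 19529 in the same order of lines, against 571, 545, 416 and 3397 in control 2. Every ATO array was thus above every DAR array and every control, while the DAR and control 1 arrays overlapped. The difference was -4.45 ± 0.53 (SE; adjusted p = 0.000101), a change 21.9-fold smaller with DAR. MT2A signals on the ATO arrays were 35.8% to 84.1% of the highest signal of the same array, and whether the upper end of the scale limits this fold was not tested. It stayed called under each of 17 alternatives.

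MT1H showed the widest gap of the 36 genes, at -6.95 ± 0.71 (SE; adjusted p = 1.77e-05). Its signal was 29.8, 28, 54.0 and 120 after DAR in U266, MM.1s, KMS11 and 8226/S, against 52.4, 36.3, 111 and 279 in control 1. The ATO arrays held 17280, 17924, 3878 and 15005, against 46.7, 37.3, 43.9 and 1140 in control 2. The DAR values lay below their controls in each line, in a dim range where the offset of 29 damps log2 changes, and that change was not called (-0.62, adjusted p = 0.619). MT1X was at 99.0, 102, 198 and 462 after DAR, against 51.7, 85.8, 301 and 566 in control 1, and at 18255, 25930, 9124 and 13375 after ATO, against 129, 43.7, 532 and 2064 in control 2. Its ATO arrays were again above all others, with a difference of -5.50 ± 0.85 (SE; adjusted p = 0.00205). The other called members were MT1F (-5.94), MT1HL1 (-5.40), MT1E (-4.23) and MT1G (-3.83). Another probe set gave smaller differences, -3.1 for MT1F, -1.99 for MT1E and -4.97 for MT1X. MT3, a form found mainly in brain, was 0.65 ± 0.39 (SE; adjusted p = 0.597), and it turns to -0.97 when the controls are pooled.

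Leaving out a line kept MT2A, MT1H, MT1G and MT1HL1 called each time. MT1X lost the call without U266 (adjusted p = 0.074), MT1F without U266 (0.0931) or MM.1s (0.0792), and MT1E without MM.1s (0.113) or 8226/S (0.0642). The 7 called members were read from probe sets of the type that shares probes among similar transcripts, so signal cannot be assigned with certainty to single members. The zinc exporter gene SLC30A1, another target of MTF1, rose with ATO (1.34, adjusted p = 0.00435), stood at -0.14 with DAR (adjusted p = 0.861) and did not pass for the difference (-1.49 ± 0.38, SE; adjusted p = 0.113). Of the 18 tested genes of zinc transport and MTF1 none was called for the difference, with a median of -0.03.

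The metal response element is the short DNA motif bound by MTF1. The bases before the annotated start of 3 of these genes are shown because they differ in how many copies of that motif they carry, with matches to TGCGCNC or TGCACNC on either strand in capitals. Sequences are from RefSeq (GRCh38.p14) and run 5′ to 3′ along the gene over 250 bases on the plus strand. MT2A, at chr16:56608334-56608583, holds 7 matches, MT1H, at chr16:56669564-56669813, holds 8, and MT1X, at chr16:56682220-56682469, holds 4.
MT2A: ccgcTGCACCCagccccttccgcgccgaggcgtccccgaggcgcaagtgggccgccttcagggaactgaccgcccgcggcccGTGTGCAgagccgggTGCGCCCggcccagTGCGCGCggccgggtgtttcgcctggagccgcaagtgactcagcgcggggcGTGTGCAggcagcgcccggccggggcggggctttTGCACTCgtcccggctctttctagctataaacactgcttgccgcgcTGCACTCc
MT1H: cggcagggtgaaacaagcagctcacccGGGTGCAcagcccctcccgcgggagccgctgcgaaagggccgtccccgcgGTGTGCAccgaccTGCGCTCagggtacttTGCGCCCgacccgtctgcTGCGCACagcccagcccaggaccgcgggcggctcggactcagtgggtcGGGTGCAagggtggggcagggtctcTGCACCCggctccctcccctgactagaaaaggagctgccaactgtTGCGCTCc
MT1X: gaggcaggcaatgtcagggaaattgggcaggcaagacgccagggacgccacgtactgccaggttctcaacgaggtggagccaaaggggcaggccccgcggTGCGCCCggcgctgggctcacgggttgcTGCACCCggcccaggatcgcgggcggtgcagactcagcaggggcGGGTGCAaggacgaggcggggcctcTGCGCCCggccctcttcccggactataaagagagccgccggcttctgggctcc
Of 35116 promoter windows of that length in the table, 24.8% hold at least 1 match and 0.37% hold at least 4. A match is a string of letters and was not tested as a binding site. Among the 19 genes lower with DAR, 14 were in the promoter table and 6 of these held a match (GCLM, ADAM23, SLC38A6, MT2A, MT1H and MT1X), against 3 of 13 among the 17 higher genes.

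**Figure D2:**
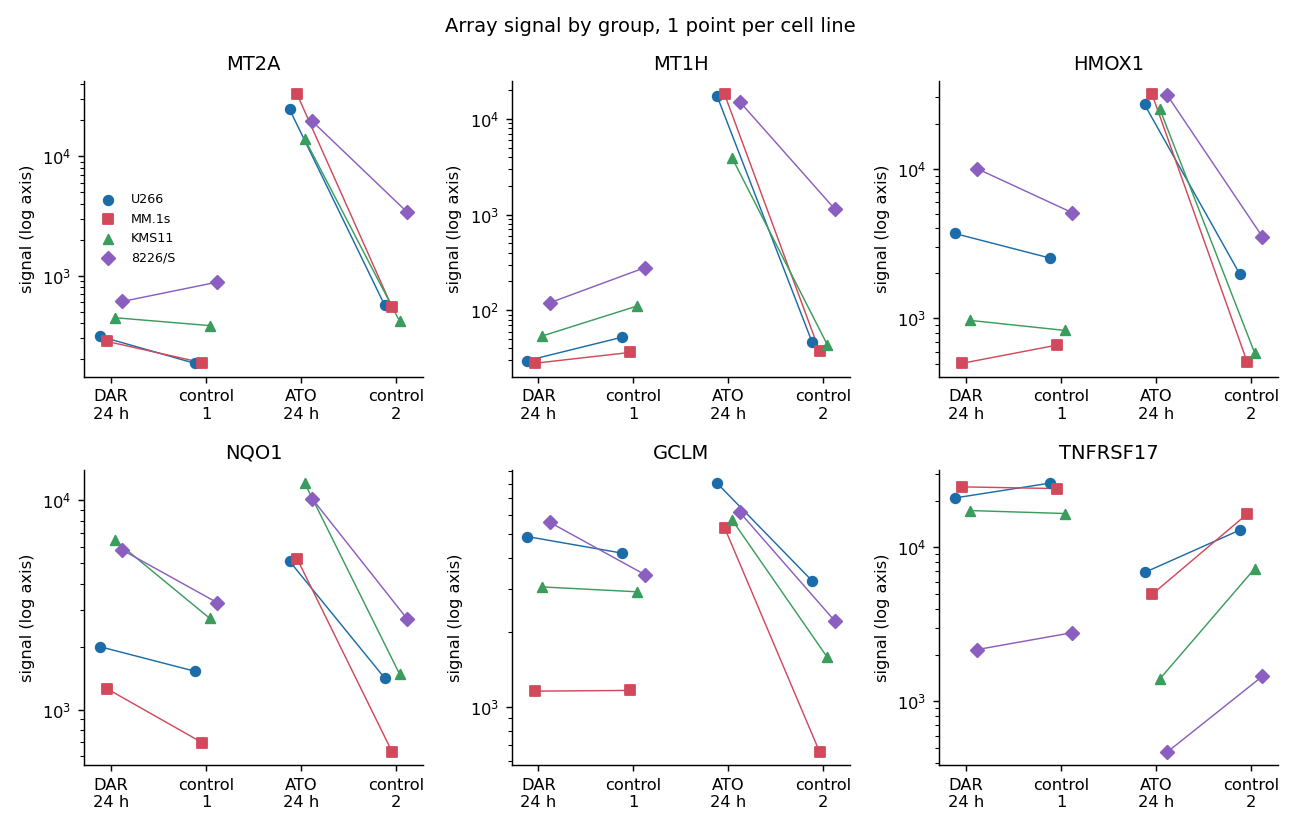
Array signal on a log axis for 6 genes, with 1 point per cell line in DAR 24 h, control 1, ATO 24 h and control 2; lines join a treated array to the control of its own set. MT2A, MT1H and HMOX1 are high on the 4 ATO arrays, with MT2A at 13918 to 32800 after ATO and 283 to 611 after DAR, while TNFRSF17 is lower on each ATO array than in its control 2.

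HMOX1 encodes the inducible heme oxygenase, which breaks heme down to biliverdin, iron and carbon monoxide. Its signal after DAR was 3694 in U266, 502 in MM.1s, 971 in KMS11 and 9978 in 8226/S, against 2535, 664, 832 and 5078 in control 1. After ATO it was 26819, 31285, 25091 and 30875, against 1992, 513, 587 and 3517 in control 2. The ATO arrays were close to each other and above all others, whereas the DAR arrays kept the order of the untreated lines, with 8226/S highest. The difference was -4.18 ± 0.59 (SE; adjusted p = 0.000768), ranging from -2.15 in 8226/S to -6.23 in MM.1s, and it lost the call without MM.1s (-3.49, adjusted p = 0.0792). HMOX1 signals on the ATO arrays were 64.6% to 83.5% of the highest signal of the same array, and whether the upper end of the scale limits that change was not tested. On the DAR arrays the share was 0.921% to 14.2%.

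The heme transporter gene SLC48A1 was at 634, 621, 406 and 1516 after DAR in U266, MM.1s, KMS11 and 8226/S, against 512, 530, 397 and 982 in control 1. With ATO it reached 3406, 4595, 2075 and 4100, against 753, 1076, 591 and 1182 in control 2. Its ATO arrays were above all others, and the difference was -1.64 ± 0.28 (SE; adjusted p = 0.00872), without MM.1s or KMS11 past the threshold (0.23 and 0.0874). GCLM, the modifier subunit of the rate-limiting enzyme of glutathione synthesis, was at 4900, 1156, 3060 and 5592 after DAR, against 4196, 1164, 2924 and 3433 in control 1. After ATO it was at 8066, 5311, 5711 and 6139, against 3242, 655, 1587 and 2227 in control 2. Within each line the ATO array was the higher of the pair of treated arrays, although the ranges over lines overlapped, and the difference was -1.64 ± 0.31 (SE; adjusted p = 0.0215). NQO1, a quinone reductase, was at 2004, 1260, 6447 and 5783 after DAR, against 1530, 698, 2732 and 3244 in control 1. After ATO it was at 5119, 5251, 12062 and 10138, against 1421, 630, 1477 and 2710 in control 2. Both treated arrays were above their control in each line. Its change with DAR was 0.82 ± 0.22 and not called (adjusted p = 0.0785), its change with ATO 2.43 ± 0.22 and called (3.06e-07), and the difference -1.62 ± 0.31 (SE; adjusted p = 0.0215). PIR, an iron-containing nuclear protein gene, differed by -1.23 ± 0.23 (SE; adjusted p = 0.018), but its DAR and ATO arrays overlapped (treated part 0.07, control part 1.30), so control 1 stood above control 2 by more than the treated arrays differed.

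These 3 calls were sensitive to the lines used. NQO1 lost its call without any 1 of the 4 lines (adjusted p = 0.0512 to 0.132). GCLM was called without 8226/S alone (0.0175) and lost without U266, MM.1s or KMS11 (0.074, 0.23 and 0.221), and PIR likewise (0.0322 without 8226/S, 0.113 to 0.152 otherwise). The antioxidant response element is the motif bound by NRF2 with small MAF proteins. The bases before the start of GCLM are shown because its window, unlike that of NQO1, held a match to the core TGACNNNGC, in capitals and on the strand opposite to the gene, at chr1:93909431-93909680 on the minus strand (RefSeq, GRCh38.p14).
GCLM: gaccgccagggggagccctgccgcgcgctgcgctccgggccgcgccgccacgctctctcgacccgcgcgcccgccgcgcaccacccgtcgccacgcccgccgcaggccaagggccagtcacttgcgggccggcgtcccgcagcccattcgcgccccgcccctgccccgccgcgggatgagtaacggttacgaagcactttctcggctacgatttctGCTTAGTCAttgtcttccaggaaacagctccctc
NQO1 held no match in its window of 250 bases, and bases farther from the start were not searched. Of all windows, 10.9% hold at least 1 match. Of the 14 lower genes in the promoter table, 3 held a match (GCLM, MT2A and MT1X), against 4 of 13 among the 17 higher genes.

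Over the 25 tested NRF2 targets the median difference was -0.78, against -0.00 over all genes, with 4 lower (HMOX1, NQO1, GCLM and PIR), none higher and 21 not passing. With DAR none of the 25 was called (median 0.24), against 0.621% of all tested genes. With ATO 19 rose (median 1.06), against 2.74%. The difference was negative in the 4 lines for 16 of the 25, against 11.2% of all tested genes. List medians were -0.73 in U266, -1.25 in MM.1s, -1.12 in KMS11 and -0.59 in 8226/S. The 7 tested regulators of this response had no call for the difference, among them KEAP1, which holds NRF2 in check (-0.60 ± 0.19, SE; adjusted p = 0.243), and BACH1, the repressor of HMOX1 (-0.62 ± 0.26, SE; adjusted p = 0.388).

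LINC00304, a long noncoding RNA gene, was at 164, 4.45, 58.7 and 222 after DAR in U266, MM.1s, KMS11 and 8226/S and at 7173, 9217, 764 and 1346 after ATO. The ATO arrays were above all DAR arrays, and the difference was -5.53 ± 0.72 (SE; adjusted p = 0.000295), yet its other 2 probe sets stood at -0.22 and 0.37. ADAM23, a cell adhesion gene of the disintegrin family, differed by -1.65, with a change of -0.54 with DAR and 1.11 with ATO, and its other 3 probe sets ranged from -1.87 to 0.19. The remaining lower genes were SLC38A6 (-1.55), a member of an amino acid transporter family, C1orf53 (-1.23), the tRNA hydrolase family gene PTRHD1 (-1.0), the thiopurine methyltransferase gene TPMT (-0.89) and GNPTG (-0.79), which encodes a subunit of the enzyme that tags lysosomal proteins. TPMT was at 897, 475, 594 and 671 after DAR, against 881, 787, 653 and 950 in control 1, and at 2113, 1253, 1422 and 2021 after ATO, against 1574, 757, 1014 and 1273 in control 2. The TPMT array after DAR was the lowest of the 4 groups in MM.1s, KMS11 and 8226/S. For C1orf53 and PTRHD1 the control part (1.15 and 1.18) was larger than the treated part (-0.09 and 0.18). Another probe set stood at -0.3 for C1orf53 and -0.35 for TPMT. ADAM23, C1orf53, TPMT and GNPTG lost their calls without any 1 line (adjusted p = 0.0582 to 0.399), and SLC38A6 and PTRHD1 kept theirs only without 8226/S (0.0361 and 0.0242).

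TNFRSF17 encodes BCMA, a receptor of mature B and plasma cells that binds the survival factors BAFF and APRIL. Its signal after DAR was 20934 in U266, 24735 in MM.1s, 17356 in KMS11 and 2170 in 8226/S, against 26134, 24098, 16602 and 2794 in control 1. After ATO it was 6871, 4957, 1395 and 469, against 12934, 16473, 7288 and 1454 in control 2. In each line the DAR array stayed near its control and the ATO array was the lowest of the 4, with 8226/S dimmest throughout. The difference was 1.5 ± 0.27 (SE; adjusted p = 0.0116), made of -0.14 with DAR and -1.64 with ATO (adjusted p = 1.13e-05), and it lost the call without MM.1s (0.238) or KMS11 (0.122). Control 1 was above control 2 here by 0.92, so treated arrays alone differed more, by 2.42.

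CD48, a surface ligand of the SLAM family, was at 12742, 11536, 7531 and 419 after DAR, against 11702, 13258, 8269 and 339 in control 1. With ATO it stood at 6522, 4869, 2724 and 379, against 10310, 16859, 6932 and 841 in control 2. Its difference of 1.24 ± 0.21 (SE; adjusted p = 0.00849) came from the ATO side, with 0.02 for DAR and -1.22 for ATO, and the call was kept without U266 alone (0.0261) and lost without MM.1s, KMS11 or 8226/S (0.112, 0.0973 and 0.0502). The other probe set of CD48 stood at 0.36 for the difference. HLA-E, a nonclassical class I molecule read by natural killer cells, was at 6788, 8686, 5985 and 5923 after DAR, against 7470, 8586, 5824 and 3676 in control 1. It was at 3606, 3576, 2559 and 2726 after ATO, against 7071, 11305, 4701 and 3630 in control 2, and the DAR and ATO arrays did not overlap. The difference in its changes was 1.12 ± 0.22 (SE; adjusted p = 0.0247). RGS2, a brake on G protein signalling, differed by 1.90 (0.45 with DAR, -1.45 with ATO), CALML4 of the calmodulin family by 1.87, the phosphatase gene CTDSP1 by 1.13, EEF1AKMT2, a methyltransferase of elongation factor 1A, by 1.20, and the endocytosis gene FCHSD2 by 1.11. CD44, the hyaluronan receptor, differed by 1.33 and its 9 other probe sets were also above 0 (0.34 to 1.43). Without 8226/S the calls of HLA-E, RGS2, CALML4, CTDSP1 and EEF1AKMT2 held (adjusted p = 0.0361 to 0.0386), and without any other line they did not (0.074 to 0.324), while CD44 and FCHSD2 passed in none of these fits (0.0722 to 0.287).

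FOS, an immediate early gene of the AP-1 factor, had the largest positive difference, 4.48 ± 0.68 (SE; adjusted p = 0.00166). Its signal was 155, 18.0, 22.5 and 479 after DAR in U266, MM.1s, KMS11 and 8226/S, against 15.3, 11.9, 32.2 and 142 in control 1, and 39.2, 13.6, 11.2 and 22.9 after ATO, against 1996, 820, 135 and 424 in control 2. Control 2 was the highest of the 4 groups in U266, MM.1s and KMS11 and the DAR array in 8226/S, and the control part of the difference (-3.18) was larger than the treated part (1.31). Of 19 tested immediate early genes FOS alone was called, and the list median was 0.85 with a control difference of -0.61. The FOS call was lost without U266 (3.66, adjusted p = 0.074). Control 1 lay below control 2 by more than the treated arrays differed also for CCNP, LY86, GSDMB, GCSAM, EYA2 and CTDSP1. Among these, LY86, a partner of the B cell surface protein CD180, was at 130, 1262, 141 and 2114 after DAR, against 79.5, 477, 122 and 1658 in control 1. It was at 112, 520, 239 and 1148 after ATO, against 290, 1226, 296 and 2585 in control 2. LY86 (1.55), the germinal centre gene GCSAM (1.51), the cyclin gene CCNP (2.17) and the phosphatase and coactivator gene EYA2 (1.35) had treated arrays that did not keep 1 sign over the lines. In these leave-one-out fits LY86 was called without KMS11 only (adjusted p = 0.0169, otherwise 0.141 to 0.428), CCNP and EYA2 without 8226/S only (0.0261 and 0.0375), and GCSAM never (0.101 to 0.287).

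**Figure D3:**
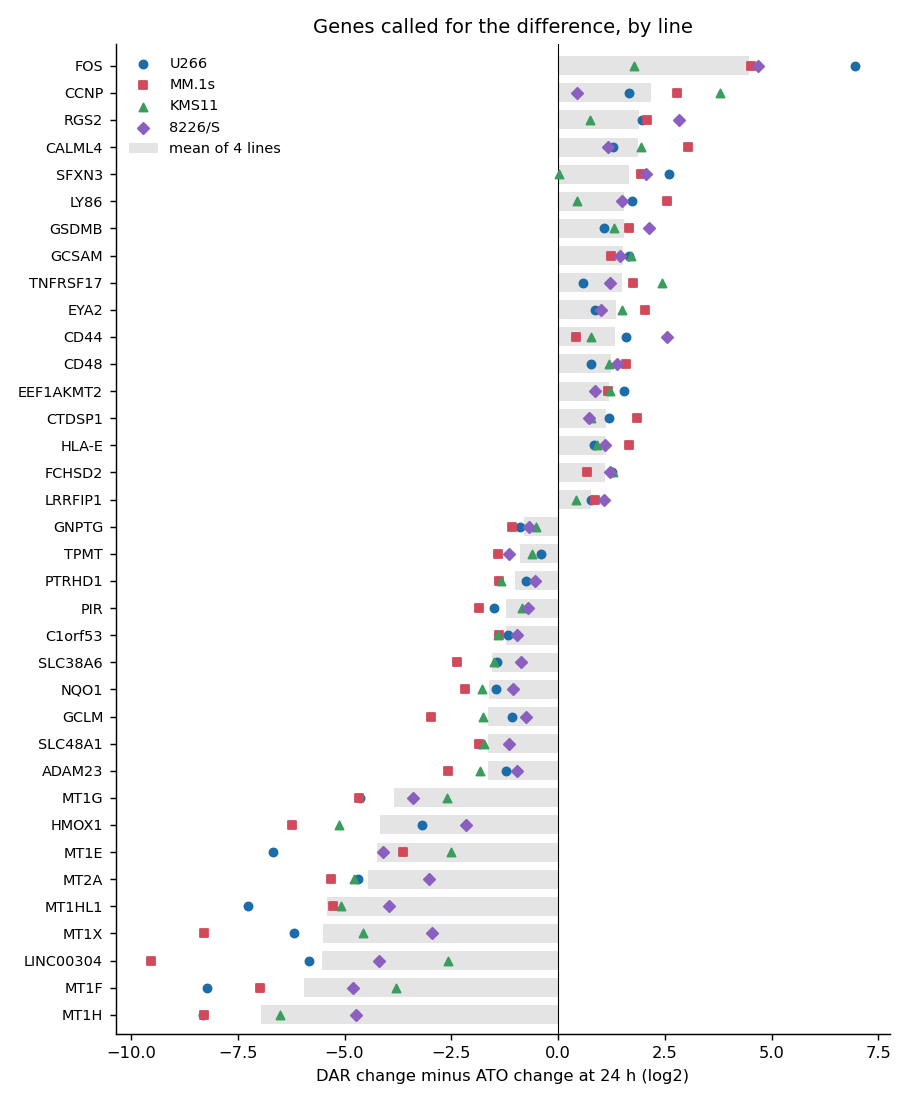
DAR change minus ATO change (log2) for the 36 called genes, with the 4 lines as points and their mean as a bar. MM.1s is the point farthest from 0 for 14 of the 19 lower genes and 8226/S the nearest for 13 of them.

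Of the 36 genes, 3 rose with DAR and were not called with ATO. GSDMB, a member of the pore-forming gasdermin family, was at 402, 611, 1026 and 425 after DAR in U266, MM.1s, KMS11 and 8226/S, against 202, 279, 411 and 53.5 in control 1, and at 242, 386, 752 and 254 after ATO, against 277, 602, 780 and 194 in control 2. It rose with DAR by 1.42 (adjusted p = 0.00846) and stood at -0.12 with ATO, and its 2 other probe sets were near 0 for the difference (-0.04 and 0.13). SFXN3, a mitochondrial serine carrier of the sideroflexin family, rose with DAR by 1.13 (adjusted p = 0.0298), with 309, 561, 735 and 1244 after DAR, against 70.8, 264, 553 and 472 in control 1. Its ATO arrays were lower than the DAR arrays in each line, at 73.9, 206, 368 and 231. Control 2 held 154, 419, 275 and 398, so in KMS11 the ATO array was above its control. The change with ATO was not called (-0.52, adjusted p = 0.253), and the difference was close to 0 in KMS11 alone (0.01). The other 2 probe sets of SFXN3 stood at -0.57 and 0.13 for the difference. LRRFIP1, a nucleic acid binding protein gene, rose with DAR by 0.53 (adjusted p = 0.0319). The rise of SFXN3 with DAR was lost without any 1 of the 4 lines (adjusted p = 0.0923 to 0.21), and that of LRRFIP1 without U266, KMS11 or 8226/S (0.0873, 0.173 and 0.286). For the difference, LRRFIP1 passed in none of the leave-one-out fits (adjusted p = 0.122 to 0.23), SFXN3 passed without KMS11 only (0.00751, otherwise 0.199 to 0.366) and GSDMB without 8226/S only (0.0491, otherwise 0.152 to 0.322).

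HSPA6, a stress-inducible HSP70 gene with little expression in unstressed cells, rose with DAR by 3.28 ± 0.57 (SE; adjusted p = 0.0103), with 197, 1543, 411 and 2614 after DAR, against 41.6, 12.0, 43.2 and 191 in control 1. After ATO it was at 174, 561, 658 and 131, against 123, 53.4, 136 and 171 in control 2, a change of 1.25 that was not called (adjusted p = 0.238). The DAR value was above its control in each line, but the lines overlapped between agents, and the difference did not pass (2.04 ± 0.80, SE; adjusted p = 0.37). Over the 19 tested heat shock genes the median difference was -0.34, with none called. With DAR HSPA6 alone rose, and with ATO 3 rose, against 0.492% and 2.74% of all tested genes.

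Of 26 tested interferon-response genes, none was called for the difference. All 26 had a mean difference above 0, against 7681 of 15448 tested genes. In the 4 lines 7 were positive, against 9.97% of all tested genes, and the median was 1.03 against -0.00. Members of a list share the arrays, so they are not independent. With DAR 3 rose (IFIT3, OAS2 and IFI35; median 1.01), and with ATO 1 rose, IFI35 again (median -0.09), against 0.492% and 2.74% of all tested genes. IFI35 differed by 0.54 (adjusted p = 0.465). The change of OAS2 with DAR was 0.06 in MM.1s and 3.91 in 8226/S. IFIT3, an interferon-induced gene of antiviral defence, was at 6949, 1049, 577 and 8552 after DAR in U266, MM.1s, KMS11 and 8226/S, against 3003, 373, 162 and 191 in control 1. After ATO it was at 1795, 239, 336 and 393, against 5057, 412, 189 and 453 in control 2. The DAR array was the highest of the 4 groups in each line, most of all in 8226/S, and the difference was 2.80 ± 0.63 (SE; adjusted p = 0.0674). IFIT1 (3.52 ± 0.90, SE; adjusted p = 0.112) and the ubiquitin-like modifier gene ISG15 (2.34 ± 0.67, SE; adjusted p = 0.19) had positive values in each line as well. The list median was 1.21 in U266, -0.02 in MM.1s, 0.55 in KMS11 and 2.27 in 8226/S. The median control part of the list difference (-0.64) was larger in size than the median treated part (0.47). The rise of HSPA6 and IFIT3 with DAR was lost without KMS11 (adjusted p = 0.126 for both) or 8226/S (0.106 and 0.134), as was that of GSDMB (0.126 and 0.0767). TRAF1, an adaptor of TNF receptor signalling, rose with DAR by 1.83 (adjusted p = 0.0132; 0.126 without KMS11, 0.185 without 8226/S), and its control part was -1.95 against a treated part of 0.18.

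Cholesterol synthesis genes had a median difference of 0.96 over 16 tested members, with none called. All 16 were above 0, against 7681 of 15448 tested genes. With ATO 14 of the 16 fell (median -1.32), against 2.29% of all tested genes. With DAR none was called (median -0.30), against 0.621%. HMGCS1, an early enzyme of the pathway, was at 933, 1144, 1236 and 1473 after DAR in U266, MM.1s, KMS11 and 8226/S, against 1193, 1339, 1691 and 1365 in control 1. It was at 550, 468, 504 and 1388 after ATO, against 2034, 1510, 2040 and 1677 in control 2. The ATO array was low in U266, MM.1s and KMS11 and near the others in 8226/S, with a difference of 1.20 ± 0.28 (SE; adjusted p = 0.0825). By line the list median was 1.13, 1.70, 1.02 and 0.12 in the same order. Fatty acid synthesis genes (8 tested) had the same median, 0.96, with none called, but the treated part of their difference was -0.73 and the control part -1.31, so FASN and SREBF1 turn from 1.20 and 1.09 to -1.53 and -0.78 when controls are pooled.

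Of 25 tested chaperone and unfolded protein response genes of the endoplasmic reticulum, 22 were above 0 (median 0.47), against 7681 of 15448 tested genes. None was called for the difference. With ATO 15 fell, against 2.29% of all tested genes, and with DAR none was called, against 0.621%. HSP90B1, the chaperone GRP94, differed by 0.98 ± 0.24 (SE; adjusted p = 0.102) and the oxidase gene ERO1A by 1.03 ± 0.25 (SE; adjusted p = 0.0996). Plasma cell identity genes had a median of 0.44 with 15 of 18 above 0, and TNFRSF17 was called. Of these genes 9 fell with ATO, against 2.29% of all tested genes, and none was called with DAR, against 0.621%. POU2AF1, a B lineage coactivator, was at 10244, 18978, 20964 and 11015 after DAR and at 4579, 7998, 6714 and 3538 after ATO, without overlap, and its difference was 1.09 ± 0.25 (SE; adjusted p = 0.0826). PRDM1, the plasma cell factor BLIMP1, fell with ATO (-0.93, adjusted p = 9.45e-05) and differed by 0.65 ± 0.18 (SE; adjusted p = 0.175).

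None of the other lists held a call for the difference. Proteasome subunits had a narrow negative range, -0.43 to -0.03 over 29 genes (median -0.27), with a control difference of 0.73 and 4 subunits rising with ATO; PSMC2, PSMC3, PSMB2 and PSMB5 change sign when the controls are pooled. G2/M genes had 30 of 31 members above 0, against 7681 of 15448 tested genes, with a median of 0.38. ATF4 stress response genes had a median of -0.30. With ATO 10 of 34 rose, against 2.74% of all tested genes, and none was called with DAR, against 0.621%. TRIB3, a pseudokinase induced by ATF4, was nearest to a call (-1.43 ± 0.33, SE; adjusted p = 0.0825). Further list medians, in brackets, were those of G1/S genes (-0.05), MYC and ribosome biogenesis genes (-0.10), p53 targets (-0.03), arsenic and glutathione handling (-0.16), iron handling (-0.24), ubiquitin and autophagy (-0.16), glycolysis and hypoxia (0.28), NF-kB genes (0.24) and the death-promoting and survival sides of the BCL2 family (-0.13 and 0.08). The survival gene MCL1 differed by 0.13 ± 0.24 (SE; adjusted p = 0.913), with signs that varied among lines and settings. Markers of other cell types had a median of -0.14 with none of 18 called.

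**Figure D4:**
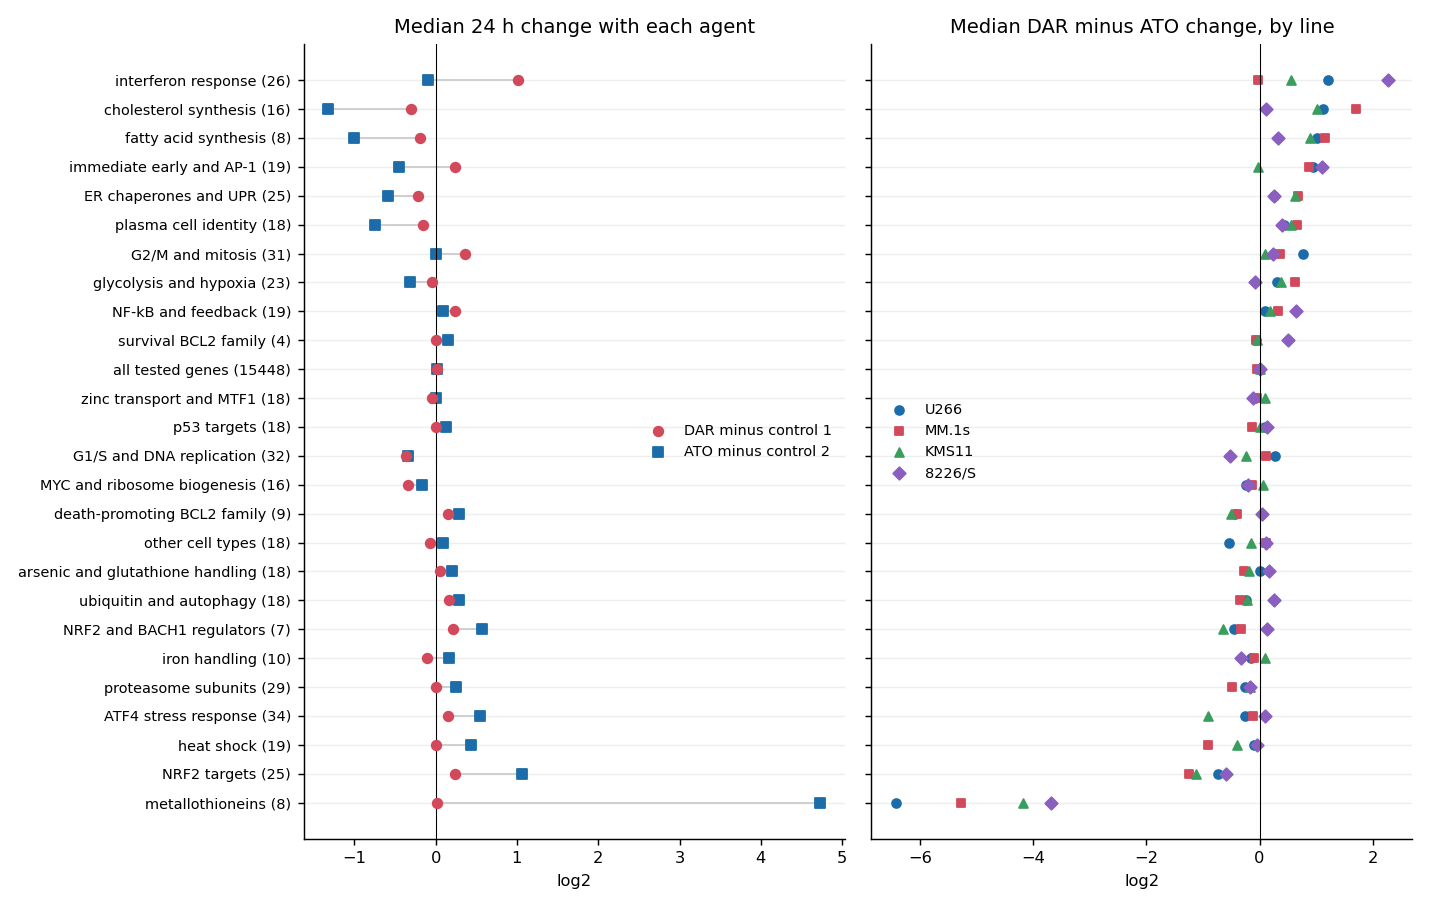
List medians (log2), with the number of tested members in brackets: at left the change with DAR and the change with ATO as means over 4 lines, at right the DAR change minus the ATO change in each line. Metallothioneins stand at 0.02 with DAR and 4.73 with ATO, and the interferon list at 1.01 with DAR and -0.09 with ATO.

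The lines differed in the size of the gap. Over the 19 lower genes the median difference was -1.84 in U266, -2.97 in MM.1s, -1.83 in KMS11 and -1.16 in 8226/S. Over the 17 higher genes it was 1.28, 1.76, 1.22 and 1.22, again largest in MM.1s, and the difference between lines was not tested. Across all genes the per-line differences were only loosely related, with Pearson's r of 0.088 to 0.189 between lines over 15448 genes, which are not independent and share the array sets. A single line moved 15.3% to 18.1% of genes by more than 1 log2 unit, against 3.83% for the mean of the 4 lines. Leaving out U266, MM.1s or KMS11 left 10, 7 or 12 genes called, and leaving out 8226/S left 41. LINC00304, MT1G, MT1H, MT1HL1 and MT2A were called in each of these 4 fits, and 9 of the 36 in none.

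Only 8226/S received both agents at 2 µM, so its values were read beside the others without a test. There, MT2A changed by -0.52 with DAR and 2.51 with ATO, HMOX1 by 0.97 and 3.12, NQO1 by 0.83 and 1.89 and TNFRSF17 by -0.36 and -1.58. Equal doses thus gave differences of the same direction for these 4 genes, at -3.03, -2.15, -1.06 and 1.22. Of the 41 genes called from the other 3 lines (24 higher, 17 lower), 37 had the same sign in 8226/S, against 55.2% of all tested genes, and 37 were smaller there, with a median size of 0.82 against 1.75. Because the 3 lines chose these genes, a smaller value in the line left out is partly built in. Genes called without U266 were smaller in it in 3 of 10 cases, those called without MM.1s in 1 of 7 and those called without KMS11 in 10 of 12.

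The changes with each agent were read apart. Over the 41 genes the median size of the change with DAR was 0.5 in 8226/S, where its dose was lowest, against 0.31 for the mean of the other 3 lines. That of the change with ATO, given at 2 µM to every line, was 0.7 against 1.66, smaller in 8226/S for 39 of 41. These are unlike measures, since opposite signs cancel in a mean of 3 lines but not in 1 line. The other 3 lines also chose the 41 genes, so a smaller change with ATO in 8226/S is partly built in here as well. Over all tested genes, 12.7% moved by more than 1 log2 unit with DAR in 8226/S, against 8.58% to 10.2% in the other lines. With ATO the share was 5.96% in 8226/S, against 8.14% to 10.9%. SRXN1, FDPS, SQLE and SAMD14 had the other sign in 8226/S. SRXN1, a sulfiredoxin gene of the NRF2 response, stood at 0.04 in 8226/S and -1.76 over the other lines, and the isoprenoid synthesis gene FDPS at -0.13 and 1.55. CCL5, a chemokine gene, was the widest case in 8226/S, at 6.54 (6.82 with DAR, 0.28 with ATO), against 2.81 in the other lines. Dose, line and agent cannot be told apart with 1 line at equal doses.

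**Figure D5:**
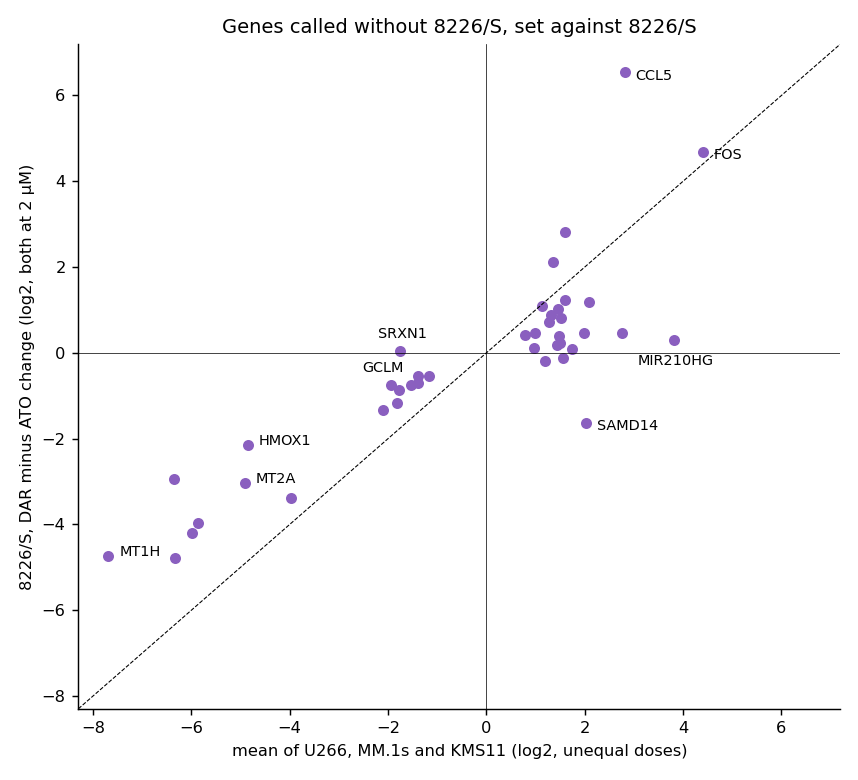
DAR change minus ATO change (log2) in 8226/S, where both agents were given at 2 µM, against the mean of U266, MM.1s and KMS11, for the 41 genes called without 8226/S; the dashed line marks equality. Most points lie nearer to 0 on the 8226/S axis, MT1H at -4.73 against -7.69, and CCL5 lies above the dashed line.

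The 6 h arrays of the same lines place these values in time, without a test. HMOX1 changed by 3.27, 2.11, 4.48 and 1.81 at DAR 6 h in U266, MM.1s, KMS11 and 8226/S, and by 0.54, -0.38, 0.22 and 0.97 at DAR 24 h. With ATO its mean change was 4.55 at 6 h and 4.51 at 24 h, so the agents were closer at 6 h than at 24 h for this gene. The means of GCLM followed the same order, at 1.19 and 0.24 for DAR and 2.29 and 1.89 for ATO at 6 and 24 h. In 8226/S, the line with equal doses, GCLM did not, at 0.65 and 0.70 for DAR and 1.92 and 1.45 for ATO. MT2A did not follow that order either, since its mean was 0.27 at 6 h and 0.22 at 24 h with DAR, and 5.22 and 4.67 with ATO. HSPA6 was higher at 6 h with either agent (6.29 with DAR, 3.90 with ATO) than at 24 h (3.28 and 1.25). TNFRSF17 stood at -0.14 at both times with DAR and at -0.69 and -1.64 with ATO, and IFIT3 at 0.51 and 2.39 with DAR and -0.81 and -0.41 with ATO. The DAR 6 h and 24 h values share control 1 and the ATO values share control 2.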

How the data were processed

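RNA of 28 samples was hybridised to HG-U133 Plus 2.0 arrays. The deposited values are linear signal intensity per probe set made with GCOS, per the submitters' processing notes, with the version not given in the sources used here, and each array's values share a 2% trimmed mean. Of 54675 probe sets, 62 array controls were left out, and 41097 have 1 gene symbol, 1801 several and 11777 none. A gene is its brightest single-symbol probe set (19775 genes), with 41043 symbols updated by Entrez ID. Values were analysed as log2(value + 29), an offset that damps the changes of dim genes. Genes above the array's 50th percentile on at least 4 of 28 arrays were tested (15448).

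limma 3.58.1 in R 4.3.3 was fitted to the 28 arrays with a baseline per line and control set and a term per treatment (15 residual degrees of freedom), eBayes with trend and Benjamini-Hochberg adjustment over all tested genes, with calls at adjusted p under 0.05. The labels' cell lines pair the arrays, and same-line deviations correlated at 0.67 or more. The fit was tested on simulated data. The number of arrays limits the precision. Per line, values were summarised with Python 3.11.15, numpy 2.4.6 and pandas 2.3.3. Genes named were the 4 markers, up to 15 called genes per direction by size, and in each of 25 lists the 4 members with the smallest p plus all tested metallothioneins; the remaining called genes, genes called with DAR within a list, and SRXN1, SQLE, SAMD14 and CCL5 were added after their values were seen. The members and lists were chosen with earlier results of these data known. Alternatives covered the arrays in the fit, the controls, the pairing, normalization, offset, filter, probe sets, variance model and each line left out.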

Additional observations from a re-analysis of the deposited data

Results flagged for a closer look

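Of 127 genes looked at, 9 had 1 line far from the other 3 in the DAR change minus the ATO change (log2), by a test that flags about 1 in 20 groups by chance. The line apart was 8226/S for HMGCS1 (0.38), FASN (-0.25), the iron regulatory gene ACO1 (-0.9) and the growth gene PA2G4 (-1.22). It was MM.1s for the heat shock gene DNAJB4 (-1.96), the spindle checkpoint gene MAD2L1 (0.82) and FCHSD2 (0.67). It was KMS11 for the zinc transporter gene SLC30A6 (0.15) and the replication gene MCM6 (-1.52). Among these 9 genes only FCHSD2 was called for the difference.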

How the results depend on the processing

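The difference was called at 36 genes. It gave 110 calls on the 4 per-line differences alone, 21 on the 16 arrays of the comparison, 22 with the filter on all 16 arrays, 22 without the variance trend and 7 to 41 with a line left out. Pooling the controls, which sets DAR arrays directly against ATO arrays, gave 5516 (1954 higher, 3562 lower) and moved the median of all genes to -0.218. With no replicate block, that is without pairing by line, 2 genes were called. The share of calls that were higher was 47.2%, and it was 31.0% after quantile normalization, 38.7% after median centring, 26.9% with an offset of 1 and 25% without the filter. For DAR, the 96 calls became 9 on the 4 differences, 40 on 16 arrays, 512 with pooled controls, 55 after quantile normalization, 269 over all probe sets, 38 without the trend, 0 by limma with no replicate block (unadjusted p under 0.05 for 385 genes) and 0 to 75 with a line left out. For ATO, the 777 calls became 298 on the 4 differences, 15 with no replicate block, 501 after median centring (44.9% higher, against 54.4%), 499 without the trend and 202 to 956 with a line left out. MT2A was called under 17 of 17 alternatives, HMOX1 under 15, TNFRSF17 under 13 and NQO1 under 11.

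With pooled controls the sign turned for MT3 (-0.97), SLC39A1 (-0.56), PIR (0.07), PTRHD1 (0.18), CUL3 (0.19), PSMC2 (0.53), PSMC3 (0.24), PSMB2 (0.12), PSMB5 (0.33), NCOA4 (0.13), PDIA4 (-0.33), MVD (-0.19), FASN (-1.53), ACSS2 (-0.68), SREBF1 (-0.78), MCM6 (0.02), POLE2 (0.23), NOLC1 (0.66), WDR12 (0.13), PA2G4 (0.08), ALDOC (-0.4), HK2 (-0.15), NDRG1 (-0.67), PFKP (-0.59), TNF (-0.27), PPM1D (0.43), BAK1 (-1.02), BID (0.46), BCL2L1 (-0.72), MCL1 (-0.3) and CD8A (-1.59). MCL1 turned also without 8226/S (-0.03), moving between that and 0.32 with a line left out, and BCL2 without 8226/S (-0.05), without MM.1s (-0.07), after quantile normalization (-0.03) and after median centring (-0.04). The cause was not tested. Dim probe sets near the offset limit what changes can be read.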
